A study of Homo sapiens with 16 samples.

Results

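The 10 genes described here encode secreted inflammatory proteins. CXCL1, CXCL2, CXCL3, CXCL5, CXCL6 and CXCL8 are chemokines that attract neutrophils, IL1A and IL1B are the interleukin-1 cytokines, and IL6 and LIF are cytokines of the interleukin-6 family. They were taken by gene symbol, as known targets of the transcription factor NF-kB, and all 10 were found among the 35993 genes of the count table. RNA was sequenced from RT112, TCCSUP, J82 and 253J, 4 established lines of human bladder cancer cells that are all wild type by their labels. Each line was kept for 48 h in CM-1758, a histone deacetylase (HDAC) inhibitor, at the IC50 of that line, or in 0.01% DMSO as the vehicle control by the treatment labels, although the sample titles mark the controls as NT and the text of the study also calls them untreated. Every group had 2 libraries, described as independent biological replicates, which makes 16 libraries in 8 groups. The concentration of CM-1758 thus differed between lines, and TCCSUP was grown in EMEM while the other 3 lines were grown in DMEM, so a difference between lines cannot be told apart from dose or medium.

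The chemokines of this family carry a glutamate-leucine-arginine motif and act through the receptors CXCR1 and CXCR2, which draw neutrophils to inflamed or tumor tissue. Interleukin-1 alpha and beta bind IL1R1 and switch on NF-kB, whose target genes include the chemokines, IL6 and IL1B itself, while IL6 and LIF signal through the shared receptor subunit IL6ST to STAT3. Bladder epithelium and bladder tumor cells are known to release CXCL8, CXCL1 and IL6 during inflammation. HDACs remove acetyl groups from histones and from other proteins, NF-kB subunits among them.

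Libraries held 22506431 to 32537104 reads assigned to genes, and levels are given as CPM, the read counts scaled to a common library size with TMM factors, on which 3 counts correspond to 0.0981 to 0.119 CPM. This floor covers counting error only. Calls were made at an adjusted p below 0.05 (edgeR quasi-likelihood test, Benjamini-Hochberg over 21297 tested genes), and all 10 cytokine genes passed the filter on low counts. Scaling by library size in place of TMM moved the median log2 fold change of all tested genes by 0.15 in both J82 and RT112, 0.27 in 253J and 0.31 in TCCSUP, and no called cytokine gene changed direction. The epithelial keratins KRT8, KRT18 and KRT19 were detected in 16 of 16 libraries, whereas KRT5 and KRT13 were at 0 in 11 and 9 of them. The urothelial marker UPK3A was at 0 in 14 libraries and UPK2 in 11. UPK1B was at 0 in 6 but reached a group mean of 1408 CPM, and PPARG was detected in 16 of 16. The summed level of the 18 epithelial and urothelial markers went from between 3193 and 4344 CPM to between 1880 and 2372 CPM in 253J, from between 11238 and 11931 to between 8200 and 8688 in RT112 and from between 1354 and 1475 to between 531 and 619 in TCCSUP, and overlapped in J82. Of the myeloid markers, the neutrophil genes CSF3R and FCGR3B were at 0 in 15 of 16 libraries, while PTPRC, CD14 and CSF1R reached group means of 9.58, 11.06 and 9.70 CPM. Of the lymphocyte markers, MS4A1 was at 0 in 16 of 16 libraries and CD3D reached 2.64 CPM, and the sum of the 7 went from between 0.345 and 0.475 to between 3.15 and 3.22 CPM in TCCSUP, from between 0.262 and 0.339 to between 1.02 and 1.26 in RT112, and up to 0.745 in 253J and J82. The summed level of the 10 myeloid markers, of which CD68 reached the highest group mean, went from between 8.542 and 10.97 CPM to between 32.9 and 44.1 CPM in 253J, from between 28.0 and 73.1 to between 12.2 and 24.5 in J82, from between 4.202 and 4.642 to between 8.66 and 9.20 in RT112, and from between 40.3 and 42.0 to between 29.9 and 36.4 in TCCSUP. The sum of 6 fibroblast markers in TCCSUP went from between 7403 and 7788 to between 576 and 644 CPM, and in RT112 from between 1336 and 1368 to between 837 and 907 CPM. The part of these shifts in the results was not tested. The 2 J82 control libraries stood apart from each other in these genes. CXCL8 was 14.3-fold higher in replicate 1 than in replicate 3, a wider gap than in 99.9% of all tested genes, IL6 was 5.92-fold higher and CXCL3 4.54-fold higher. Where a call of treated against control in J82 changed without 1 of them, for a cytokine gene or a list gene named here, that value is given, and the chromosome neighbours were not recomputed.

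For 9 of the 10 genes the RefSeq table (GRCh38.p14) held the sequence before the transcription start, and LIF had no entry. The stretches shown are those with a match to the NF-kB type motif GGNNTTTCC (N is any base), searched on both strands of the 250 bases before the start. It was found in 7 of these 9 genes, all 6 chemokines and IL6, and in 5.48% of all 35116 promoters of the table. In CXCL1, CXCL2 and CXCL3 it occurred 2 times, which was so in 0.231% of all promoters. Because the genes were chosen as known NF-kB targets, these contrasts with all promoters follow from the choice and are no independent result. Each line below spans 140 to 21 bases before the start on the gene's own strand, and capitals mark the motif. CXCL8 lies on the plus strand at chr4:73740429-73740548, CXCL6 at chr4:73836538-73836657 (plus) and CXCL1 at chr4:73869253-73869372 (plus). CXCL5 lies at chr4:73998698-73998817, CXCL3 at chr4:74038710-74038829 and CXCL2 at chr4:74099216-74099335, all on the minus strand, and IL6 at chr7:22727060-22727179 (plus).
CXCL8: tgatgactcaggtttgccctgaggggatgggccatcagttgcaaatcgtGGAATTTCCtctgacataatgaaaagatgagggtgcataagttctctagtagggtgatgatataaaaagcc
CXCL1: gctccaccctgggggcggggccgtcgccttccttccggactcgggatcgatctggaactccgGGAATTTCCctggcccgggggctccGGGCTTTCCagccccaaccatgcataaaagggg
CXCL2: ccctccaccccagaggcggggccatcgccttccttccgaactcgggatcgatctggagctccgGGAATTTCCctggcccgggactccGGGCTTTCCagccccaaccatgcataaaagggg
CXCL3: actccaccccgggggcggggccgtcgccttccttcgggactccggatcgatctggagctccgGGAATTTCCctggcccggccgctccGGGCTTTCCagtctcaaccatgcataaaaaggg
CXCL5: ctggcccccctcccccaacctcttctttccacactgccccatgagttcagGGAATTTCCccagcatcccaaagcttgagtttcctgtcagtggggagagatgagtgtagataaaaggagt
CXCL6: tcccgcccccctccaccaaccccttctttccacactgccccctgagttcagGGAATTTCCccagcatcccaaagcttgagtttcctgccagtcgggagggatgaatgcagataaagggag
IL6: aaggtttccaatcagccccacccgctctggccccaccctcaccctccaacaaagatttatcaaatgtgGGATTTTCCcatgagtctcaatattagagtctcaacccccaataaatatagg

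The first match had the same 9 letters in all 6 chemokine promoters and 1 other form in IL6. Around it, 30 bases to either side, CXCL1 was identical to CXCL3 at 62 of 69 positions and to CXCL2 at 56, and CXCL5 to CXCL6 at 66. CXCL8 shared only 19 to 26 of 69 positions with the other chemokines. CXCL8 also held an AP-1 type motif (TGANTCA) 137 bases before its start, present in 6.57% of all promoters, and a TATAAA 31 bases before it, present in 10.7%. IL1A had no NF-kB type match but AP-1 type matches at both of its listed starts, and IL1B had none of the 3 motifs in this window. These matches describe letters in a window and say nothing of binding in these cells.

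Without CM-1758 the lines differed in all 10 genes (adjusted p below 0.05 for 10 of 10 against 78.8% of all tested genes). 253J was the line richest in CXCL8, CXCL1, CXCL2 and LIF, and J82 in IL6. IL1B was highest in TCCSUP, which did not differ from RT112 beyond its spread (adjusted p = 0.421). In RT112, CXCL1, CXCL2, CXCL3 and CXCL5 had 0 counts in all 4 libraries, treated ones included, which allows at most about 0.119 CPM in a library. In 253J, IL1A and CXCL6 had 0 counts in all 4 libraries. For control levels of CXCL8 the order was 253J, J82, RT112 and TCCSUP, in which RT112 and TCCSUP did not differ beyond their spread (adjusted p = 0.136). Per kilobase of transcript, a scale that allows a comparison between genes, 253J controls held 95.4 ± 2.13 CPM per kb of LIF, 44.4 ± 10.9 of CXCL8 and 36.2 ± 9.10 of CXCL1 (SD, n = 2), while J82 controls held 38.4 ± 38.7 of IL6.

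With CM-1758, 0 of the 10 genes were called higher and 2 lower in 253J, 2 higher and 1 lower in J82, 3 higher and 0 lower in RT112, and 4 higher and 2 lower in TCCSUP. Over all tested genes 28.8% were higher and 22.4% lower in 253J, and the shares were 24% and 18.5% for J82, 27.4% and 20.2% for RT112, and 32% and 22.1% for TCCSUP, so the shares called were close to or below those of all genes in most of these counts. At the stricter limit of a log2 fold change beyond 2 and an adjusted p below 0.01, CXCL8 and IL1A passed in RT112 and CXCL8 and CXCL5 in TCCSUP, with none in 253J and J82, against 12.9%, 10.1%, 12.8% and 17.5% of all tested genes in 253J, J82, RT112 and TCCSUP. The median log2 fold change of the 10 genes was 0, 0.58, 1.00 and 2.91 for 253J, J82, RT112 and TCCSUP. With genes at 0 counts in a group set at their bound and genes without counts set at 0, it was 0.00, 0.58, 0.40 and 0.29, beside 0.00, 0.00, 0.03 and 0.14 for all tested genes handled in the same way. The genes did not move as a block. CXCL8 and IL1A gave the largest measured folds upwards, beside CXCL5 in TCCSUP, which rose from 0 counts, LIF was called in all 4 lines but in both directions, and CXCL1 fell in 253J and rose in J82.

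CXCL8, or interleukin-8, is the main neutrophil chemokine released by epithelial and tumor cells. In RT112 it went from 2.48 and 5.93 CPM in the controls to 76.3 and 148 CPM with CM-1758, and in TCCSUP from 0.791 and 1.53 to 17.59 and 15.98 CPM. Both treated libraries lay above both controls by more than the spread between libraries. The fold was 26.6 in RT112 (log2 fold change 4.74 ± 0.83 SE, adjusted p = 0.000281) and 14.4 in TCCSUP (3.84 ± 0.93, adjusted p = 0.00289). In 253J, where the control level was already 88.8 and 62.5 CPM, the treated libraries held 172 and 154 CPM, 2.15-fold more. These groups did not overlap, but the test, which used a spread shared by all 4 lines, was not passed (1.104 ± 0.687, adjusted p = 0.198). Without the 4 J82 libraries, a choice made after seeing the data, the log2 fold change was 1.13 (adjusted p = 0.00558). With 253J fitted alone it was 1.09 (adjusted p = 0.000242). In J82 the controls held 33.2 and 2.25 CPM and the treated libraries 85.9 and 40.1 CPM, so all treated values were higher but the log2 fold change of 1.83 ± 0.72 stayed just short of the limit (adjusted p = 0.0518). Leaving out J82 control replicate 1 gave 4.80, leaving out control replicate 3 gave 0.93, and leaving out treated replicate 3 gave 2.28. RLE scaling gave 1.92 (adjusted p = 0.044). After treatment, the levels of CXCL8 in 253J and RT112 did not differ beyond their spread (adjusted p = 0.522), whereas TCCSUP stayed below the other 3 lines.

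CXCL1 (GRO-alpha), the closest relative of CXCL2 and CXCL3, moved the other way in 253J. Its controls held 46.7 and 32.6 CPM and its treated libraries 12.6 and 9.18 CPM, a 3.64-fold fall (log2 fold change -1.86 ± 0.48, adjusted p = 0.0065). The call was lost without 253J control replicate 2 (adjusted p = 0.0575) or treated replicate 3 (adjusted p = 0.061). In J82 it rose 3.22-fold, from 4.71 and 1.24 to 11.9 and 7.31 CPM (1.69 ± 0.51, adjusted p = 0.0191), and this call was lost without J82 control replicate 3 (adjusted p = 0.0923) or treated replicate 1 (adjusted p = 0.0896). In TCCSUP only 1 treated library had counts of CXCL1, with 5. Treated 253J and J82 cells ended at like levels of CXCL1 (adjusted p = 0.778), although the control level of 253J had been far above that of J82 (adjusted p = 7.7e-05).

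CXCL8 and CXCL1 thus moved apart within the same 253J libraries. The ratio of CXCL8 to CXCL1, each per kilobase of transcript and free of any scaling between libraries, was 1.22 and 1.23 in the 253J controls and 8.74 and 10.8 with CM-1758. In J82 the ratio was 4.53 and 1.17 in the controls and 4.66 and 3.53 in the treated libraries, and the groups overlapped. No test of the ratio was run.

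**Figure D1:**
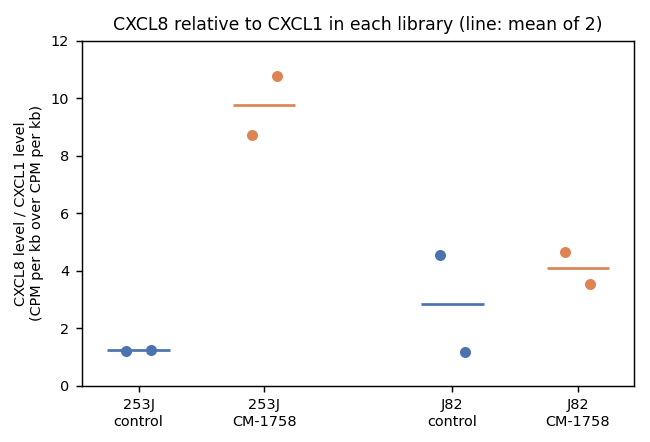
Ratio of the CXCL8 level to the CXCL1 level (CPM per kb over CPM per kb) in each 253J and J82 library, controls in blue and CM-1758 in orange, with short lines for means of 2 libraries. The 253J controls sit together at 1.22 and 1.23 and the treated libraries at 8.74 and 10.8, while the J82 groups overlap.

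CXCL2 and CXCL3, also called GRO-beta and GRO-gamma, are near copies of CXCL1. CXCL2 in 253J held 14.9 and 10.4 CPM in the controls and 6.85 and 4.42 CPM with CM-1758, a log2 fold change of -1.17 ± 0.47 that did not pass the test (adjusted p = 0.0553). CXCL2 did so without the 4 J82 libraries, a choice made after seeing the data (-1.14, adjusted p = 0.00698). In J82 its values of 2.58 and 0.582 CPM in the controls and 3.151 and 1.997 CPM in the treated libraries overlapped. The log2 fold change there was 0.70 with all libraries, 2.13 without J82 control replicate 1 and -0.006 without control replicate 3. In TCCSUP CXCL2 stayed between 0.633 and 0.973 CPM in all 4 libraries. CXCL3 had 2.75 and 1.76 CPM in 253J controls and 1.66 and 1.15 CPM in treated 253J cells (adjusted p = 0.39). In J82 it had 1.75 and 0.327 CPM in the controls and 0.859 and 0.711 CPM with CM-1758 (log2 fold change -0.40 ± 0.67, adjusted p = 0.696), which became 1.25 (adjusted p = 0.211) without J82 control replicate 1 and -1.15 (adjusted p = 0.149) without control replicate 3. In TCCSUP it had 0 counts in the controls and 4 and 8 counts with CM-1758, at least 1.99-fold more (adjusted p = 0.0275), a call that was lost without either control library or without treated replicate 2 (adjusted p between 0.0943 and 0.108). Of the stretches of 50 bases in the longest coding transcript, 5.73% in CXCL1, 9.24% in CXCL2 and 5.26% in CXCL3 occurred in another of these genes, so a small share of their reads could have been assigned to the wrong one, while the other 7 genes shared none.

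CXCL5 and CXCL6 form a second closely related pair, with low levels throughout. CXCL5 went from 0.380 and 0.145 CPM to 1.79 and 0.745 CPM in J82, 4.83-fold higher (log2 fold change 2.26 ± 0.77, adjusted p = 0.0359). The call was lost without J82 control replicate 3 (adjusted p = 0.196) or treated replicate 1 (adjusted p = 0.239), without either treated TCCSUP library (adjusted p = 0.0612 and 0.0633), and by DESeq2 (adjusted p = 0.242). In TCCSUP CXCL5 was at 0 counts in both controls and at 25 and 29 counts with CM-1758, at least 8.89-fold higher (adjusted p = 0.00118). CXCL6 in J82 had 11 and 4 counts in the controls and 28 and 31 with CM-1758 (1.86 ± 0.99, adjusted p = 0.16). Its log2 fold change was 2.78 without J82 control replicate 1 and 1.29 without control replicate 3. Elsewhere CXCL6 reached no more than 6 counts in any library.

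On chromosome 4 the 6 chemokine genes lie in 1 cluster in the order CXCL8, CXCL6, CXCL1, CXCL5, CXCL3 and CXCL2. Of the 17 genes between or beside them in the RefSeq gene order, 9 were in the table and 2 were tested. RASSF6, a Ras association domain gene beyond the CXCL8 end, fell in 253J from 75.7 ± 8.21 to 29.6 ± 3.45 CPM (SD, n = 2, log2 fold change -1.36 ± 0.22 SE, adjusted p = 0.000122). It rose in J82 from 0.112 to 0.645 CPM (adjusted p = 0.00476) and in TCCSUP from 0 to 1.25 CPM, at least 10.7-fold (adjusted p = 1.7e-05), and did not pass the test in RT112 (-0.42 ± 0.21, adjusted p = 0.125). MTHFD2L, beyond CXCL2, rose in J82, RT112 and TCCSUP by 0.79, 0.52 and 0.60 on the log2 scale (adjusted p between 0.00147 and 0.0237) and not in 253J (0.01 ± 0.16). The platelet chemokine genes PF4, PF4V1 and PPBP, which lie among the 6, did not pass the filter on low counts.

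**Figure D2:**
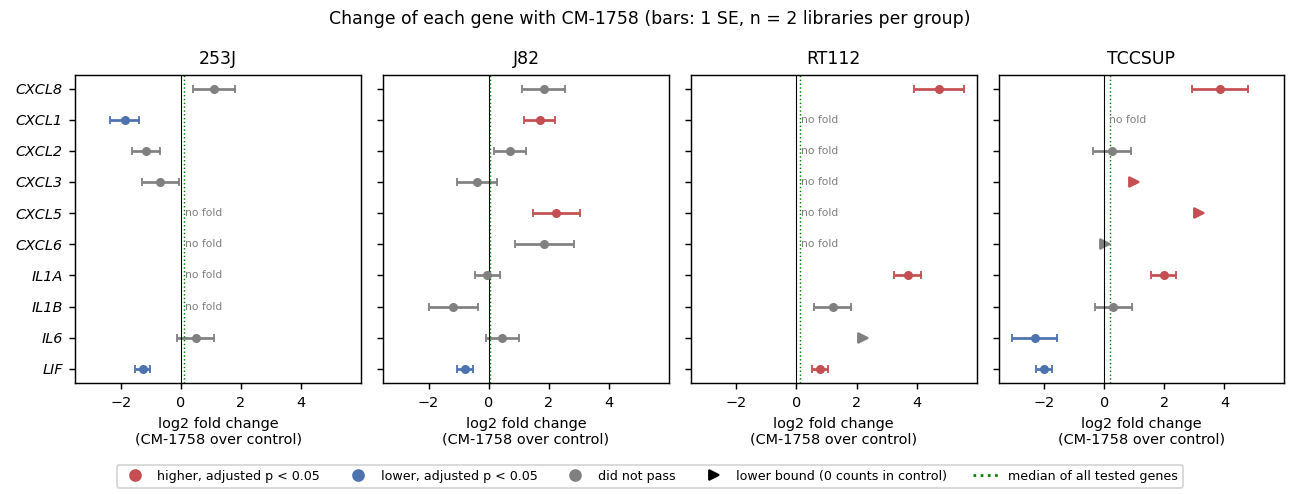
Log2 fold change with CM-1758 over control for the 10 cytokine genes in each cell line, with bars of 1 SE (2 libraries per group), red for genes called higher, blue for genes called lower and grey for the others; triangles are lower bounds where both controls had 0 counts, the dotted line is the median of all tested genes, and "no fold" marks genes with too few counts for a fold. CXCL8 is to the right of 0 in each line, with 4.74 in RT112 and 3.84 in TCCSUP, whereas LIF is to the left in 253J, J82 and TCCSUP and to the right in RT112.

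IL1A encodes interleukin-1 alpha, an alarmin that is active without cleavage and can be released by dying epithelial cells. In RT112 it went from 1.60 and 2.17 CPM to 14.0 and 35.3 CPM, 13.1-fold higher (log2 fold change 3.71 ± 0.45, adjusted p = 2.5e-05). In TCCSUP it went from 3.72 and 4.48 CPM to 10.7 and 21.8 CPM, 3.96-fold higher (1.98 ± 0.42, adjusted p = 0.00144). The treated libraries were above the controls in both lines and stood 2.51-fold apart from each other in RT112 and 2.03-fold apart in TCCSUP. In J82 the controls held 5.77 and 6.83 CPM and the treated libraries 5.73 and 6.50 CPM, which gave -0.04 ± 0.41 (adjusted p = 0.998), so that J82 had the highest control level (not distinct from TCCSUP, adjusted p = 0.25) and the lowest level after treatment among the 3 lines with IL1A counts.

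IL1B encodes interleukin-1 beta, which needs cleavage by caspase-1 to become active, and its gene lies beside IL1A on chromosome 2. It was called in 0 of 4 lines. RT112 held 1.70 and 2.85 CPM in the controls and 1.60 and 8.92 CPM with CM-1758, so the groups overlapped (log2 fold change 1.21 ± 0.62, adjusted p = 0.122). Without RT112 treated replicate 1 the value was 1.97 (adjusted p = 0.00792). TCCSUP held 3.64 and 3.48 CPM in the controls and 3.33 and 5.47 CPM in the treated libraries (0.30 ± 0.61), J82 fell from 0.798 and 0.873 to 0.609 and 0.135 CPM without passing the test (adjusted p = 0.273), and 253J had 0 counts in the controls and 3 and 2 with CM-1758.

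IL6 is a cytokine of acute inflammation that acts through STAT3. In TCCSUP both controls held 6.05 and 6.39 CPM and both treated libraries 1.31 and 1.18 CPM, a 5.00-fold fall (log2 fold change -2.32 ± 0.76, adjusted p = 0.0198) opposite to CXCL8 and IL1A in the same cells. The libraries of each group were within 1.055-fold and 1.103-fold of each other, but with 1 library left out the adjusted p rose to 0.0565 without control replicate 2, 0.0819 without treated replicate 1 and 0.093 without treated replicate 2. In RT112 IL6 had 0 counts in the controls and 6 and 18 counts with CM-1758, at least 4.61-fold more (adjusted p = 0.109). That call was gained without the 4 J82 libraries, left out after seeing the data (adjusted p = 0.000324), and with DESeq2 on all lines (adjusted p = 0.000714). J82 expressed most IL6, with 100 and 16.9 CPM in the controls and 117 and 44.3 CPM in the treated libraries, values that overlapped (0.46 ± 0.56, adjusted p = 0.556), with 2.25 (adjusted p = 0.0013) without J82 control replicate 1 and -0.32 (adjusted p = 0.58) without control replicate 3. In 253J the groups did not overlap, at 8.44 and 6.32 against 10.5 and 10.3 CPM, with a log2 fold change of 0.49 ± 0.61 (adjusted p = 0.547).

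LIF, leukemia inhibitory factor, is a relative of IL6 that signals through LIFR and IL6ST. It was called in each of the 4 lines, downwards in 3 of them. In 253J it fell 2.41-fold, from 373 and 385 CPM to 161 and 153 CPM (log2 fold change -1.27 ± 0.25, adjusted p = 0.000679), and in TCCSUP 3.99-fold, from 76.8 and 79.9 to 14.1 and 25.2 CPM (-1.996 ± 0.266, adjusted p = 1.93e-05). In J82 it fell 1.72-fold, from 39.70 and 25.99 to 23.6 and 14.6 CPM (-0.78 ± 0.26, adjusted p = 0.0246), a call that was lost without J82 control replicate 1 (adjusted p = 0.239) or treated replicate 3 (adjusted p = 0.23) and with scaling by library size (adjusted p = 0.0786). In RT112 it rose 1.73-fold, from 10.95 and 13.76 to 20.6 and 22.1 CPM (0.79 ± 0.27, adjusted p = 0.0238), and this was lost without RT112 control replicate 1 (adjusted p = 0.166), treated replicate 1 (adjusted p = 0.0583) or treated replicate 2 (adjusted p = 0.0964). The 4 control groups all differed from each other in LIF, whereas after treatment J82, RT112 and TCCSUP lay between 14.1 and 25.2 CPM and no pair of them differed beyond its spread (adjusted p between 0.629 and 0.914).

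A joint test of whether the effect of CM-1758 differed between the 4 lines was passed by 5 of the 10 genes, CXCL1, CXCL8, IL1A, IL6 and LIF, against 51.9% of all tested genes. CXCL2, CXCL3, CXCL5, CXCL6 and IL1B did not pass it. RT112 had 0 counts of CXCL1, CXCL2, CXCL3 and CXCL5 in all its libraries, and 253J had 0 of IL1A and CXCL6. For these genes such a line held no information on the change, and the test rested on the other lines. In bulk RNA, fewer cells with a transcript and less of it per cell cannot be told apart.

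The receptors of these proteins were counted in a list of 9 genes, of which 8 were tested. In 253J 3 rose and 2 fell, in J82 3 rose, in RT112 6 rose and in TCCSUP 2 rose, with none lower in the last 3 lines. Of all tested genes, 28.8% rose and 22.4% fell in 253J, and 24% and 18.5% in J82. The shares were 27.4% and 20.2% in RT112 and 32% and 22.1% in TCCSUP, and they stand beside the counts of every list below too. The median log2 fold change of the receptors was 0.39, 0.61, 1.81 and 0.36 in the same order, and -0.04, 0.12, 1.81 and 0.06 with genes at 0 counts set at their bound. IL1R2, a decoy receptor that binds interleukin-1 without signaling, rose in each line, from 0.131 to 2.22 CPM in 253J (adjusted p = 2.77e-05), from 0 to 1.09 in J82 (at least 9.82-fold, adjusted p = 3.27e-05), from 0.398 to 3.11 in RT112 (adjusted p = 0.000121) and from 0 to 2.32 in TCCSUP (at least 19.9-fold, adjusted p = 3.6e-06). CXCR2, the receptor of all 6 chemokines, was called higher in 253J and TCCSUP but reached only 0.217 and 0.602 CPM. IL6ST, the subunit shared by IL6 and LIF, fell in 253J from 1225 ± 17.7 to 539 ± 109 CPM (SD, n = 2, adjusted p = 0.000172) and rose in RT112 from 166 ± 6.19 to 293 ± 3.48 (adjusted p = 0.00377). IL6R did likewise, with log2 fold changes of -1.03 in 253J (adjusted p = 0.0095) and 0.83 in RT112 (adjusted p = 0.0342).

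Of 11 tested genes that process or release interleukin-1, 3 fell and 1 rose in 253J, 6 fell and 0 rose in J82, 4 fell and 2 rose in RT112, and 9 fell and 0 rose in TCCSUP, beside 22.4%, 18.5%, 20.2% and 22.1% of all tested genes lower in the same order of lines. The medians were 0.00, -0.62, -0.27 and -1.07 on the log2 scale, unchanged by bounds, and the J82 counts were 6 and 0 without either J82 control library too. CASP1, which cleaves interleukin-1 beta, fell in J82 from 12.1 ± 2.30 to 1.93 ± 1.01 CPM (6.27-fold, adjusted p = 7.53e-05), in RT112 12.9-fold (adjusted p = 1.02e-05) and in TCCSUP 14.4-fold (adjusted p = 3.53e-06), and had 0 counts in 253J. GSDMD, the pore through which mature interleukin-1 leaves the cell, fell in all 4 lines, by 5.00-fold (253J), 6.49-fold (J82), 3.04-fold (RT112) and 3.30-fold (TCCSUP) (adjusted p between 1.05e-07 and 6.24e-06). CASP8 fell in 253J, J82 and TCCSUP by 0.40, 0.62 and 0.48 on the log2 scale, the first and last of which were lost with scaling by library size (adjusted p = 0.516 and 0.366). GSDME rose in RT112 (0.96 ± 0.24) and fell in TCCSUP (-1.05 ± 0.19). Among the 7 tested relatives and antagonists of interleukin-1, 0 to 1 gene rose and 0 to 1 fell in each line, with medians between 0.00 and 0.42, or 0.00 and 0.35 with bounds. IL33, an epithelial alarmin, fell in TCCSUP from 5.09 ± 2.28 to 0.522 ± 0.208 CPM (adjusted p = 0.00222), and IL36G rose there from 0.0574 to 1.14 CPM (adjusted p = 0.00906). Both were also called in RT112, where IL33 fell to 0 counts (at least 1.86-fold, adjusted p = 0.0376) and IL36G rose from 0 (at least 3.48-fold, adjusted p = 0.0197). IL33 was called lower in J82 without J82 control replicate 3 (adjusted p = 0.0267).

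Among the 4 tested relatives of IL6 and LIF, CLCF1 and IL11 moved in opposite directions in J82, RT112 and TCCSUP. CLCF1, a B cell stimulating cytokine of the family, fell in all 4 lines, from 6.76 ± 0.837 to 0.451 ± 0.0778 CPM in 253J, 8.07 ± 1.96 to 1.90 ± 0.912 in J82, 2.56 ± 1.03 to 0.675 ± 0.124 in RT112 and 20.0 ± 0.0803 to 1.35 ± 0.645 in TCCSUP (adjusted p between 1.77e-06 and 0.00229). IL11, which shares IL6ST, rose by 3.89-fold (J82), 4.53-fold (RT112) and 11.4-fold (TCCSUP) (adjusted p between 2.57e-05 and 0.00563), while in 253J its log2 fold change was -0.12 ± 0.84. In TCCSUP IL11 thus rose where IL6 and LIF fell. In 253J 2 genes of the list fell (CLCF1 and CTF1, the latter named after its value was seen) and 0 rose, and in each other line 1 rose and 1 fell. Medians were -2.001, -1.05, -0.24 and 1.49 in 253J, J82, RT112 and TCCSUP, and -1.01, -1.05, -0.24 and -0.27 with bounds.

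Of 12 tested chemokines outside the set, 4 rose and 2 fell in 253J, 3 and 3 in J82, 6 and 0 in RT112, and 4 and 1 in TCCSUP. Medians were 1.18, 0.65, 3.35 and 0.58 on the log2 scale, and 0.00, 0.25, 1.87 and 0.00 with bounds. CCL20, which attracts dendritic cells and Th17 cells and is itself an NF-kB target, rose in all 4 lines, from 6.24 ± 0.222 to 32.2 ± 6.46 CPM in 253J (adjusted p = 0.000601), 0.133 ± 0.188 to 2.69 ± 2.03 in J82 (adjusted p = 0.000416), 0.0339 ± 0.0479 to 6.58 ± 0.509 in RT112 (adjusted p = 8.96e-06) and 0.0791 ± 0.112 to 11.5 ± 0.540 in TCCSUP (adjusted p = 3.23e-06). CCL5, a T cell chemokine, fell in J82 from 55.7 to 9.25 CPM (adjusted p = 0.00255) and in TCCSUP from 9.11 to 0.513 CPM (adjusted p = 0.000457). CXCL16 fell in 253J from 0.765 to 0.0506 CPM (adjusted p = 0.000283) and rose in J82 from 0.952 to 2.98 CPM (adjusted p = 0.00288). CXCL14 rose from 0 to 0.450 CPM in J82 (at least 4.03-fold, adjusted p = 0.00301) and from 0 to 0.134 CPM in TCCSUP (at least 1.15-fold, adjusted p = 0.0313).

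The NF-kB machinery was counted in 3 lists. Of the 16 subunits and kinases, 7 rose and 3 fell in 253J, 3 and 3 in J82, 7 and 3 in RT112, and 4 and 4 in TCCSUP, with medians of 0.33, -0.04, 0.05 and 0.16, unchanged by bounds. The J82 counts were 5 and 2 without J82 control replicate 1 and 4 and 2 without control replicate 3. NFKB2, the p100 precursor of the noncanonical pathway, rose in all 4 lines, by 1.62-fold (253J), 2.53-fold (J82), 6.07-fold (RT112) and 1.88-fold (TCCSUP) (adjusted p between 4.01e-06 and 0.037). NFKB1, the p105 precursor of the canonical pathway, fell in all 4, by 1.72, 0.64, 0.49 and 1.66 on the log2 scale, and the RT112 call was lost with scaling by library size (adjusted p = 0.0824). TAB3, an adaptor of the kinase TAK1, rose in all 4 lines by 0.554 to 1.204, and IKBKB, the kinase IKK-beta, fell in 253J, RT112 and TCCSUP by 1.02, 0.52 and 0.74, of which RT112 was lost with that scaling (adjusted p = 0.053). Of the 13 inhibitors and feedback genes 5 rose and 3 fell in 253J, 2 and 4 in J82, 6 and 2 in RT112, and 0 and 5 in TCCSUP. Without J82 control replicate 1 the J82 counts were 5 and 3, and without control replicate 3 they were 1 and 4. Medians were 0.32, 0.23, 0.11 and -0.19, and with bounds 0.32, 0.00, 0.11 and -0.19. NFKBIE, an inhibitor induced by NF-kB, rose in 253J and RT112 by 1.13 and 1.16, and CYLD, a deubiquitinase, in 253J, J82 and RT112 by 0.94, 0.50 and 0.73. TNIP2 fell in all 4 lines by 0.53 to 1.29, of which 253J was lost with scaling by library size (adjusted p = 0.0552), and NFKBID fell in 253J, J82 and TCCSUP by 1.71, 1.21 and 1.46.

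Of 25 other NF-kB targets, 11 rose and 6 fell in 253J, 10 and 2 did so in J82, 10 and 2 in RT112, and 8 and 5 in TCCSUP, where the shares were close to the 32% higher and 22.1% lower of all tested genes. The J82 counts were 12 and 0 without J82 control replicate 1 and 9 and 4 without control replicate 3. Medians were 0.69, 0.54, 0.95 and 0.04, and 0.69, 0.51, 0.81 and 0.04 with bounds. BIRC3, an inhibitor of apoptosis, rose in all 4 lines, from 223 ± 19.0 to 1344 ± 45.9 CPM in 253J (adjusted p = 1.54e-06), 17.9 ± 8.31 to 96.8 ± 18.3 in J82 (adjusted p = 6.13e-06), 2.55 ± 0.606 to 412 ± 22.2 in RT112 (adjusted p = 2.45e-09) and 49.1 ± 0.591 to 153 ± 41.6 in TCCSUP (adjusted p = 9.48e-05). SAA2, an acute phase protein, rose in 253J, J82 and RT112 and stood at 0.564 and 0.554 CPM without and with CM-1758 in TCCSUP. VCAM1, an adhesion molecule, fell from 489 ± 2.51 to 41.6 ± 0.663 CPM in 253J (11.7-fold, adjusted p = 3.91e-07) and from 328 ± 11.9 to 10.9 ± 0.926 in TCCSUP (30.2-fold, adjusted p = 5.31e-08), and was called lower in J82 without J82 control replicate 3 (adjusted p = 0.0221). PLAU, the urokinase, fell 6.09-fold in 253J and 4.06-fold in TCCSUP and stood at 95.1 ± 29.7 and 94.8 ± 41.6 CPM without and with CM-1758 in J82 and at 51.4 ± 2.53 and 53.8 ± 5.61 in RT112.

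Of 11 transcription factors listed as partners of NF-kB, 6 rose and 2 fell in 253J, 4 and 3 in J82, 5 and 2 in RT112, and 2 and 4 in TCCSUP (medians 0.76, 0.35, 0.54 and -0.22, unchanged by bounds). Whether they act on the promoters of the cytokine genes in these cells was not tested. Without J82 control replicate 1 the J82 counts were 6 and 3, and without control replicate 3 they were 1 and 3. ATF3, a stress factor, rose in all 4 lines, by 2.19-fold (253J), 1.83-fold (J82), 11.97-fold (RT112) and 2.20-fold (TCCSUP) (adjusted p between 1.45e-06 and 0.0352), of which the J82 call was lost without J82 control replicate 3 (0.55, adjusted p = 0.257). EGR1 rose in 253J from 1.60 ± 0.0636 to 17.9 ± 2.05 CPM (adjusted p = 0.0041) and in RT112 from 0.299 ± 0.0395 to 13.9 ± 10.3 (adjusted p = 0.000639). It was not called in J82 (log2 fold change 0.52, adjusted p = 0.683). That value became 4.88 without J82 control replicate 1 and -0.45 without control replicate 3. CEBPD, a factor of IL6 transcription, fell in all 4 lines by 2.44, 0.96, 1.29 and 1.97 on the log2 scale (adjusted p between 7.69e-06 and 0.00814). FOSL1, an AP-1 subunit, fell in J82 by 2.11 and in TCCSUP by 1.13, the latter lost with scaling by library size (adjusted p = 0.133).

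**Figure D3:**
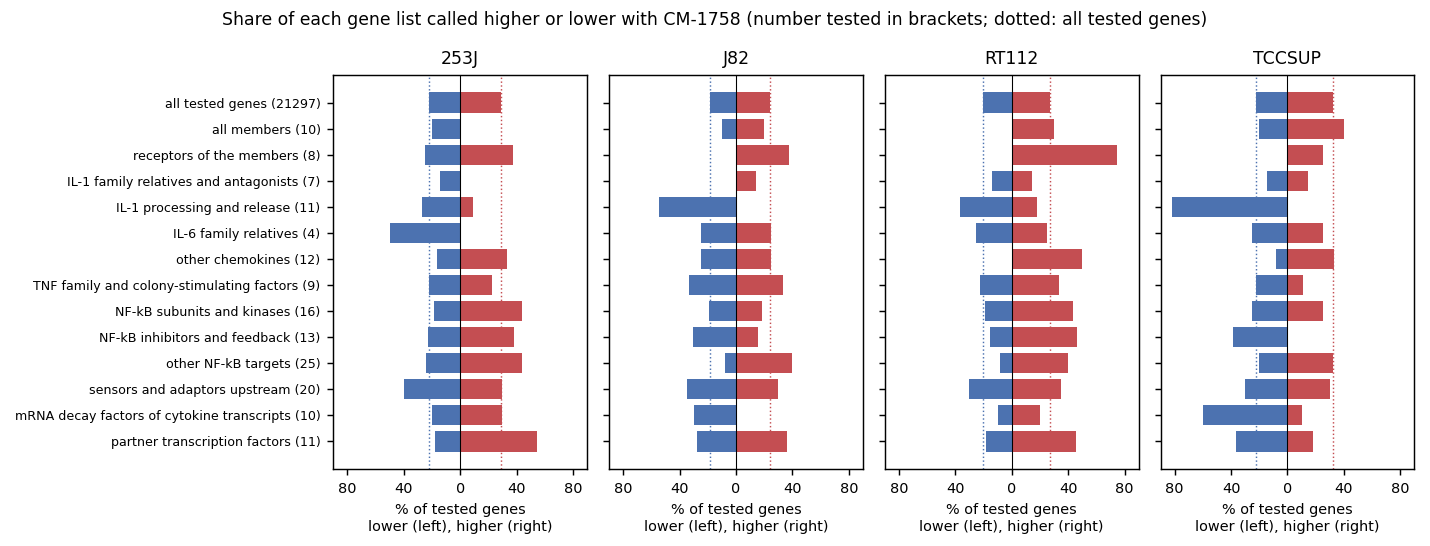
Share of tested genes of each list that were called higher (red, right) or lower (blue, left) with CM-1758 in each cell line, as a percentage, with dotted lines for all tested genes and the number tested in brackets. Interleukin-1 processing genes reach far to the left in J82 and TCCSUP (6 and 9 of 11 lower), while receptors reach far to the right in RT112 (6 of 8 higher).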

How the data were processed

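Total RNA was sequenced from stranded, ribosome-depleted libraries. For the upstream steps the submitters' processing notes name HISAT2, StringTie and GRCh37, with neither versions nor settings. The table deposited by the authors holds whole-number counts per gene symbol for 16 libraries. How they were rounded, and whether the counting used strand, is not given in the sources used here. Every value is tied to its library by the column name, and 0 other columns were found.

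Counts were fitted with edgeR 4.0.16 (R 4.3.3): TMM scaling, filterByExpr over the 8 groups (21297 of 35993 genes kept), 1 shared model over all 16 libraries with 8 residual degrees of freedom, and quasi-likelihood tests of treated against control in each line, of the interaction and of the control lines. p-values were adjusted by Benjamini-Hochberg within each contrast. The SE of a log2 fold change was taken as its size over the square root of F. A fold against 2 control libraries at 0 is a bound, taken at 3 counts per library. The fit was tested on simulated counts. Alternatives were RLE and library size scaling, 7 small noncoding RNA genes left out, other filters, each line alone, DESeq2 1.42.0, a replicate block, other limits and each library left out; leaving out the 4 J82 libraries was chosen after seeing the data. Lengths and shared stretches come from the GENCODE transcripts, promoters from RefSeq.

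The 10 genes and all lists were chosen with earlier results of these data known. Besides the 10, genes named are, per list, at most the 2 highest and 2 lowest by mean log2 fold change among those called in at least 2 lines, the 3 genes (mean log2 CPM above 0) most like each of CXCL8 and IL6, and chromosome neighbours (3 on each side of the chemokines, 2 on each side of the IL1A and IL1B pair). With 2 libraries per group, p-values rest on the spread shared by all lines.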

Additional observations from a re-analysis of the deposited data

Results flagged for a closer look

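5 of the 10 genes differed in their response between the cell lines in the joint test of interaction (edgeR quasi-likelihood test, Benjamini-Hochberg over 21297 genes), namely LIF (adjusted p = 0.000161), IL1A (adjusted p = 0.00149), CXCL1 (adjusted p = 0.00624), CXCL8 (adjusted p = 0.0276) and IL6 (adjusted p = 0.0338). RT112 had no counts of CXCL1 and 253J none of IL1A, so these lines added nothing to the test of that gene. The same test was passed by 51.9% of all tested genes. With either J82 control library left out it was passed by CXCL3 too, whereas CXCL2 passed it without control replicate 1 but not without control replicate 3. For LIF, the change in RT112 lay above that in TCCSUP by 2.79 ± 0.38 on the log2 scale (adjusted p = 6.18e-05), above that in 253J (adjusted p = 0.000641) and above that in J82 (adjusted p = 0.00693), and the change in TCCSUP lay below that in J82 (adjusted p = 0.0278). For CXCL1, the fall in 253J and the rise in J82 differed by -3.55 ± 0.71 (adjusted p = 0.0024). This difference was -4.81 without J82 control replicate 1 and -2.89 without control replicate 3. For CXCL8, the change in 253J lay below that in RT112 by 3.63 ± 1.03 (adjusted p = 0.0149), and the 5 other pairs of lines did not pass (adjusted p between 0.0592 and 0.687). For IL1A, J82 lay below RT112 (adjusted p = 0.00065) and below TCCSUP (adjusted p = 0.0241), and TCCSUP below RT112 (adjusted p = 0.0466). For IL6, TCCSUP lay below 253J by 2.81 ± 0.98 (adjusted p = 0.0464) and below RT112 (adjusted p = 0.0394). Dose and, for TCCSUP, culture medium differed between the lines and cannot be told apart from the line.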

How the results depend on the processing

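Of 976 log2 fold changes of the 10 genes recomputed under the alternatives, 25 lost a call, 28 gained one and 0 called values changed direction. The counts of called genes moved by over 1.5 times as follows, and the cause was not tested except where the alternative itself tests fewer genes. Scaling by library size gave 0 genes lower in J82. A minimum of 10 counts in every library left 2 of the 10 genes among 11984 tested, with 1 lower in 253J, 1 higher in J82, 1 higher and 1 lower in TCCSUP, 2 that differed in response and 2 that differed between control lines. An adjusted p below 0.01 gave 0 higher and 0 lower in J82, 1 lower in TCCSUP and 3 that differed in response, and a log2 fold change beyond 1 gave 0 lower in J82. edgeR with each line alone gave 1 higher in 253J and 0 lower in J82. DESeq2 gave 1 higher in J82 with all lines, and with each line alone 1 higher in 253J, 1 higher in J82 and 0 lower in J82. Without the 4 J82 libraries, a choice made after seeing the data, 1 gene was higher in 253J. Leaving out 1 library in turn gave 0 to 1 higher and 1 to 3 lower in 253J, 0 to 5 higher and 0 to 1 lower in J82, 2 to 4 higher and 0 to 0 lower in RT112, 3 to 4 higher and 1 to 2 lower in TCCSUP, 3 to 7 that differed in response and 8 to 10 that differed between control lines. RLE scaling and leaving out the 7 small noncoding RNA genes kept each of these counts within 1.5 times.

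Libraries with the same replicate number deviated together with a correlation of 0.218 in J82, 0.0529 in 253J, 0.0427 in RT112 and 0.0173 in TCCSUP, so the numbers were not taken to pair the samples. With the number as a replicate block, 4 genes were higher in J82, among them CXCL8 (log2 fold change 2.44, adjusted p = 0.002) and IL6 (0.78, adjusted p = 0.0265), and IL6 in RT112 gained a call (adjusted p = 0.00828). Genes near the floor of 3 counts, such as CXCL6 outside J82, CXCL3 in TCCSUP and CXCL5 in 253J, are limited by depth.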

Other observations

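Of 9 tested TNF family and colony-stimulating factor genes, 2 rose and 2 fell in 253J, 3 and 3 in J82, 3 and 2 in RT112, and 1 and 2 in TCCSUP, with medians of 0.26, 0.70, 1.02 and -0.21 on the log2 scale and 0.26, 0.68, 1.02 and -0.21 with bounds. CSF1, which supports macrophages, fell in all 4 lines, by 4.58-fold (253J), 2.33-fold (J82), 3.004-fold (RT112) and 3.86-fold (TCCSUP) (adjusted p between 0.000448 and 0.0167), of which the J82 call was lost without J82 control replicate 1 (adjusted p = 0.284). TNFSF10, the death ligand TRAIL, fell in all 4 lines by 1.53 to 2.34 (adjusted p between 1.61e-05 and 0.0022). TNF itself rose from 0 to 1.46 ± 0.410 CPM in RT112 (SD, n = 2, at least 14.7-fold, adjusted p = 0.00104) and from 0.0950 to 1.42 CPM in J82 (adjusted p = 0.00893, and 0.0642 without J82 control replicate 3). TNFSF15 rose in 253J, J82 and RT112, in RT112 from 16.4 ± 1.54 to 33.2 ± 3.79 CPM (adjusted p = 0.00703).

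Sensors and adaptors upstream of NF-kB were split, with 6 higher and 8 lower of 20 in 253J, 6 and 7 in J82, 7 and 6 in RT112, and 6 and 6 in TCCSUP (medians -0.02, -0.18, 0.13 and -0.16, and -0.03 in 253J with bounds). IRAK1, a kinase of interleukin-1 receptor signaling, fell in all 4 lines by 1.09, 2.26, 2.11 and 2.29 on the log2 scale (adjusted p between 3.87e-06 and 0.00164). TLR3 fell in 253J, J82 and RT112 by 3.27, 2.91 and 2.51 and rose in TCCSUP by 1.65. TLR5, the flagellin receptor, rose in all 4 lines, in TCCSUP from 0 to 2.995 ± 0.160 CPM (at least 25.6-fold, adjusted p = 1.94e-06), and NOD2 rose in J82 and TCCSUP. Of 10 factors that control the decay of cytokine mRNA, 3 rose and 2 fell in 253J, 0 and 3 in J82, 2 and 1 in RT112, and 1 and 6 in TCCSUP (medians -0.04, -0.21, 0.23 and -0.43, unchanged by bounds). RC3H2 rose in 253J by 1.22 and fell in RT112 and TCCSUP by 0.45 and 0.89, and ZFP36L1 fell in 253J and TCCSUP by 1.15 and 1.46. HNRNPD fell in 253J, J82 and TCCSUP and KHSRP in J82 and TCCSUP, of which HNRNPD in J82 (adjusted p = 0.103) and TCCSUP (adjusted p = 0.0854) and KHSRP in TCCSUP (adjusted p = 0.3) were lost with scaling by library size. HNRNPD in J82 was also lost without J82 control replicate 1 (adjusted p = 0.19), where ZFP36L1 was called higher (0.69, adjusted p = 0.0173).

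Over the 8 group means, the genes whose log2 CPM was most like that of CXCL8 among 14206 genes were MEF2C (Pearson r = 0.969), ACHE (0.968) and KCNJ11 (0.967). The genes most like IL6 were RAB32 (0.989), MPDZ (0.981) and MIER1 (0.970). The 8 points share their libraries and scaling, and the values are given as a description with no test. Among the cytokine genes themselves, CXCL1 and CXCL3 had r = 0.961, CXCL5 and CXCL6 r = 0.803, and CXCL8 and IL6 r = 0.210 over the same points.

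Of the genes beside IL1A and IL1B, 3 were tested, and all 3 rose in RT112, as did 27.4% of all tested genes. IL1B, which lies between them, was not called in RT112. CKAP2L, a mitotic spindle gene, fell in 253J, J82 and TCCSUP by 1.38, 1.06 and 1.69 on the log2 scale and rose in RT112 by 1.03 (adjusted p between 1.25e-05 and 0.000765). NT5DC4 rose in 253J from 0 to 0.310 CPM (at least 2.78-fold, adjusted p = 0.0085) and in RT112 from 0.567 to 2.08 CPM (adjusted p = 0.0343). The pseudogene XIAPP3 rose in RT112 from 0.166 to 0.889 CPM (adjusted p = 0.0211) and fell in J82 from 0.352 CPM to 0 counts (adjusted p = 0.00455).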
